A study of Mus musculus with 5 samples.

Results

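The interleukin-1 (IL-1) family genes described here are 9 of the 21289 genes in the deposited count table, taken by symbol: the cytokines Il1a, Il1b and Il18, the antagonists Il1rn and Il18bp, and the receptor chains Il1r1, Il1r2, Il1rap and Il1rl1. All 9 were in the table and all 9 passed the filter on low counts. RNA was sequenced from CD45+CD64+ cells, the gate for leukocytes that carry the Fc receptor of monocytes and macrophages, sorted from hearts taken 7 days after myocardial infarction (MI) in male wild-type mice of the C57BL/6JGpt strain. In the curcumol group (3 samples) the mice with MI had received curcumol, a sesquiterpene of Curcuma plants, daily by oral gavage at 30 mg/kg for 7 days. In the untreated group (2 samples) the mice had MI without curcumol, and the labels name no vehicle. Both groups carried the infarct, so no sample shows the uninjured heart, and the ages of the mice and whether a sample is 1 animal or a pool are not stated.

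The IL-1 system starts inflammation after tissue injury. Macrophages make IL-1 alpha, which acts as an alarm signal from damaged or activated cells, and IL-1 beta, which is made as a precursor and released after cleavage by caspase-1. Both bind the receptor chain encoded by Il1r1 together with the accessory chain encoded by Il1rap. The antagonist encoded by Il1rn blocks that receptor without signalling, and Il1r2 encodes a decoy that binds IL-1 but cannot signal. IL-18 is a related cytokine that is neutralised by the binding protein encoded by Il18bp, and Il1rl1 encodes ST2, the receptor of IL-33. After infarction, IL-1 is known for driving leukocyte recruitment and for its effects on scar formation.

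Il1a and Il1b are neighbours on chromosome 2, with no other protein-coding gene between them in the RefSeq table of GRCm38.p6. Il1rn lies elsewhere on the same chromosome, while Il1r2, Il1r1 and Il1rl1 lie in 1 receptor cluster on chromosome 1. The start regions of Il1a, its neighbour Il1b and the antagonist Il1rn are printed here because these 3 members had the lowest fold changes with curcumol, and the neighbours differed in how much lower they were. Each window runs from 250 bases before to 50 bases after an annotated start (RefSeq, GRCm38.p6), written 5′ to 3′ along the gene. The Il1a window is chr2:129309923-129310222 on the minus strand, the Il1b window chr2:129371090-129371389 on the minus strand, and the upstream Il1rn window of 3 is chr2:24336610-24336909 on the plus strand. Capitals mark matches to a searched motif.
Il1a: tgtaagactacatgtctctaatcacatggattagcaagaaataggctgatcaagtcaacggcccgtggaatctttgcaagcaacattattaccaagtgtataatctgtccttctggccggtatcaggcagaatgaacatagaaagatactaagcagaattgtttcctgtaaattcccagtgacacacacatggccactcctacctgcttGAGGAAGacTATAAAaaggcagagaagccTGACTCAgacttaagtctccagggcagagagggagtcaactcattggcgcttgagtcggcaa
Il1b: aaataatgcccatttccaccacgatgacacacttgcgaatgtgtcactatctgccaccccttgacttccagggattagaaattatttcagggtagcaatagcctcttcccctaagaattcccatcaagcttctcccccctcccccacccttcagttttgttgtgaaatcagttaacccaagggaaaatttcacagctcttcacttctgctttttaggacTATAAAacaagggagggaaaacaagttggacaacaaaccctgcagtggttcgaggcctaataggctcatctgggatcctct
Il1rn: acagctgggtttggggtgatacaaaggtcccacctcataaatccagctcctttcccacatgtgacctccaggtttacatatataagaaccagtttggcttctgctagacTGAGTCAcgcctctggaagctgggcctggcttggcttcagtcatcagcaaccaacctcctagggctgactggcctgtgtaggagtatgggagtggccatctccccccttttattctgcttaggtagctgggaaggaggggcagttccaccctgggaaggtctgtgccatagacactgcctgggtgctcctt

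All 9 members matched a window in the RefSeq table, 13 windows in all. Both strands were searched for 6 motifs: the kappa B consensus of NF-kB, the AP-1 motif TGANTCA, the cyclic AMP response element TGACGTCA, the interferon-stimulated response element, the PU.1 motif GAGGAAG and the TATA box TATAAA. In Il1a the last of these began 32 bases before the start and in Il1b 31 bases before it, and 13.6% of all 32851 windows held that motif somewhere. It also matched on the opposite strand in Il18, 175 bases before the start, and in another Il1rn window, at base 15 after the start. The Il1a window also held a PU.1 motif 41 bases before the start, as did 13.6% of all windows, and an AP-1 motif 12 bases before it, as did 7.81%. In the Il1rn window an AP-1 motif began 141 bases before the start. The kappa B consensus, found in 8.46% of all windows, was absent from the printed windows and matched in 1 window of Il1r1. The cyclic AMP response element, in 1.79% of all windows, matched in no window of a member, and the interferon-stimulated element, in 3.44%, matched in that of Il1rap. No match overlapped another, and a window without a match says nothing of the rest of the gene.

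The libraries held 39768705 to 43315822 counts. In the curcumol libraries 17078 to 18501 genes had a count, against 12243 and 12915 in the untreated libraries. Of genes at 1 to 3 CPM in the curcumol group (counts relative to library size, scaled by TMM factors as are all CPM here), 44% lacked any count in untreated replicate 1 and 36.5% in untreated replicate 2. The sorting gate was visible in every library: Ptprc, which encodes CD45, and Fcgr1, which encodes CD64, stood at 297 to 456 and 249 to 329 CPM in the curcumol libraries, against 260 to 321 and 349 to 373 CPM in the untreated libraries. Neutrophil markers summed to 1574 to 3537 CPM in the curcumol libraries, against 394 and 423 CPM in the untreated libraries, and 2 of 12, Camp and Ngp, rose in edgeR, as did 0.0689% of all tested genes. Genes that tissue dissociation induces (15 immediate early and heat shock genes) summed to 11869 to 19818 CPM in the curcumol libraries, against 40135 and 41577 CPM in the untreated libraries, and 1, Hspa1a, fell, as did 0.138% of all tested genes. Without curcumol replicate 2 none of these 3 passed, and Camp and Hspa1a did not pass without replicate 1 or without replicate 3 either. Hspa1a also did not pass with total counts as the scaling (edgeR adjusted p = 0.0560) or with a replicate block (0.149). Markers of B cells summed to 66.9 to 98.8 CPM in the curcumol libraries, against 36.5 and 54.7 CPM in the untreated libraries, those of dendritic cells to 43.6 to 74.8 CPM, against 47.6 and 77.5 CPM, and those of cardiomyocytes to 71.9 to 93.4 CPM, against 19.3 and 48.9 CPM.

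**Figure D1:**
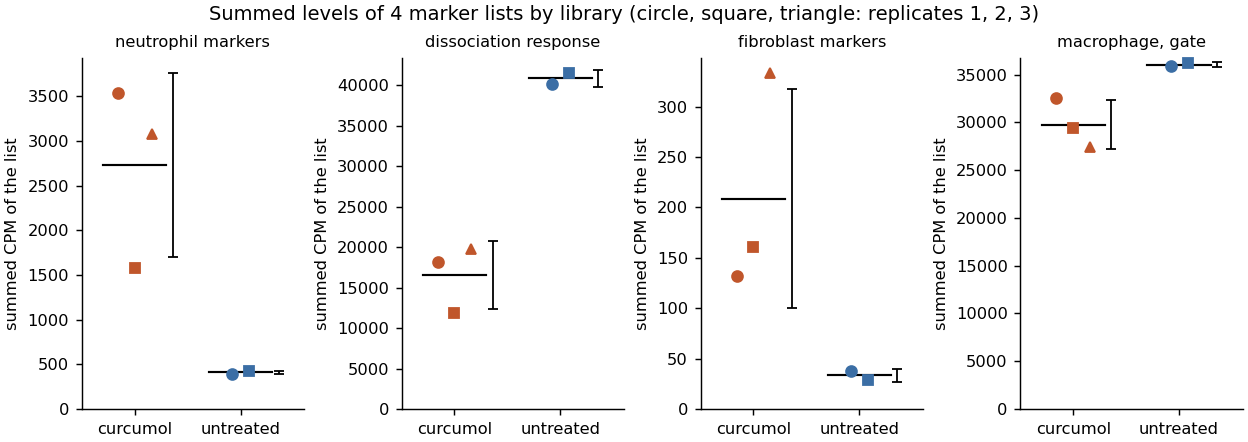
Summed TMM-scaled CPM of the neutrophil, dissociation response, fibroblast and pan-macrophage marker lists (y axes, from 0) in the 3 curcumol and 2 untreated libraries (x axes). Points are libraries, lines are means and bars beside them SD. The neutrophil and fibroblast sums were higher and the dissociation and pan-macrophage sums lower in every curcumol library than in both untreated libraries. Most of the pan-macrophage sum was Lyz2, at means of 22110 CPM in the curcumol group and 25518 CPM in the untreated group. Of the 9 genes of that list, 4 had a log2 fold change above 0 and 5 below, with a median of -0.03.

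IL-1 alpha was the member that changed past the threshold. Il1a (NCBI gene 16175) stood at 9.94, 4.56 and 8.24 CPM in the curcumol libraries, against 178 and 206 CPM in the untreated libraries. The 2 groups lay far apart, and curcumol replicate 2 was the lowest library. These levels rested on 416, 201 and 351 counts in the curcumol libraries, against 7039 and 8061 counts in the untreated libraries. Il1a fell 25.4-fold with curcumol in edgeR's quasi-likelihood test (log2 fold change -4.66 ± 0.35 SE, 95% interval -5.50 to -3.83, adjusted p = 0.0156). In that test 0.207% of all 14508 tested genes passed, 0.138% falling and 0.0689% rising, and Il1a had the eleventh lowest fold change. The call ended without any 1 of the curcumol libraries, at adjusted p = 0.0954 without replicate 1, 0.0906 without replicate 2 and 0.0766 without replicate 3, while the log2 fold change stayed between -4.90 and -4.40 over all 5 such fits.

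IL-1 beta was the most abundant member in both groups and was lower with curcumol, short of the threshold. Il1b (NCBI gene 16176) stood at 492, 229 and 534 CPM in the curcumol libraries, against 1672 and 1336 CPM in the untreated libraries. Every curcumol library lay below both untreated libraries, and curcumol replicate 2 was well below replicates 1 and 3. The mean was 3.60-fold lower with curcumol (log2 fold change -1.85 ± 0.36 SE, 95% interval -2.72 to -0.98, adjusted p = 0.0651). DESeq2, which called 4.93% of all its tested genes lower and 12.3% higher, gave adjusted p = 1.31e-05 for a log2 fold change of -1.86, and the alternatives spanned 1.31e-05 to 0.106. Without untreated replicate 1 or 2 it passed in edgeR, at adjusted p = 0.0156 and 0.00475. The order of the curcumol libraries for Il1b was also that of the dissociation response genes, at 18112, 11869 and 19818 CPM in replicates 1, 2 and 3. Il1a, at 9.94, 4.56 and 8.24 CPM, had another order, that of the neutrophil marker sum, at 3537, 1574 and 3080 CPM. Neutrophils also transcribe Il1b, and their marker sum was higher with curcumol. The part of either in the levels of Il1a and Il1b was not tested. In bulk samples fewer cells of a type and less RNA per cell cannot be told apart.

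The balance of the 2 agonists lay apart between the groups. For each Il1a count the curcumol libraries held 49.4, 50.1 and 64.7 Il1b counts, against 9.37 and 6.48 Il1b counts in the untreated libraries. The log2 ratio of Il1a to Il1b was -5.76 ± 0.22 in the curcumol group and -2.96 ± 0.38 in the untreated group (SD, n = 3 and n = 2; exact permutation test, two-sided, p = 0.1, the smallest that 3 against 2 samples allow). This ratio does not depend on depth or scaling, and it was 6.97-fold lower with curcumol. It was 1 of 4 ratios tested, with a Benjamini-Hochberg adjusted p = 0.133 in the exact permutation test. Neither locus was free of overlapping annotation. The non-coding Gm14023 lies across Il1a on the other strand, at 2.48 ± 1.46 CPM in the curcumol group and 18.5 ± 9.05 CPM in the untreated group (SD, edgeR adjusted p = 0.0671). Il1bos lies across Il1b on the other strand, at 0.831 ± 0.235 CPM in the curcumol group and 2.36 ± 1.53 CPM in the untreated group. As the library kit is given in both a stranded and another form, reads of such pairs cannot be told apart with certainty. Gm14023 stood at 1.77, 1.52 and 4.16 CPM in the curcumol libraries, and as a proportion of the Il1a level it was highest in curcumol replicate 3.

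**Figure D2:**
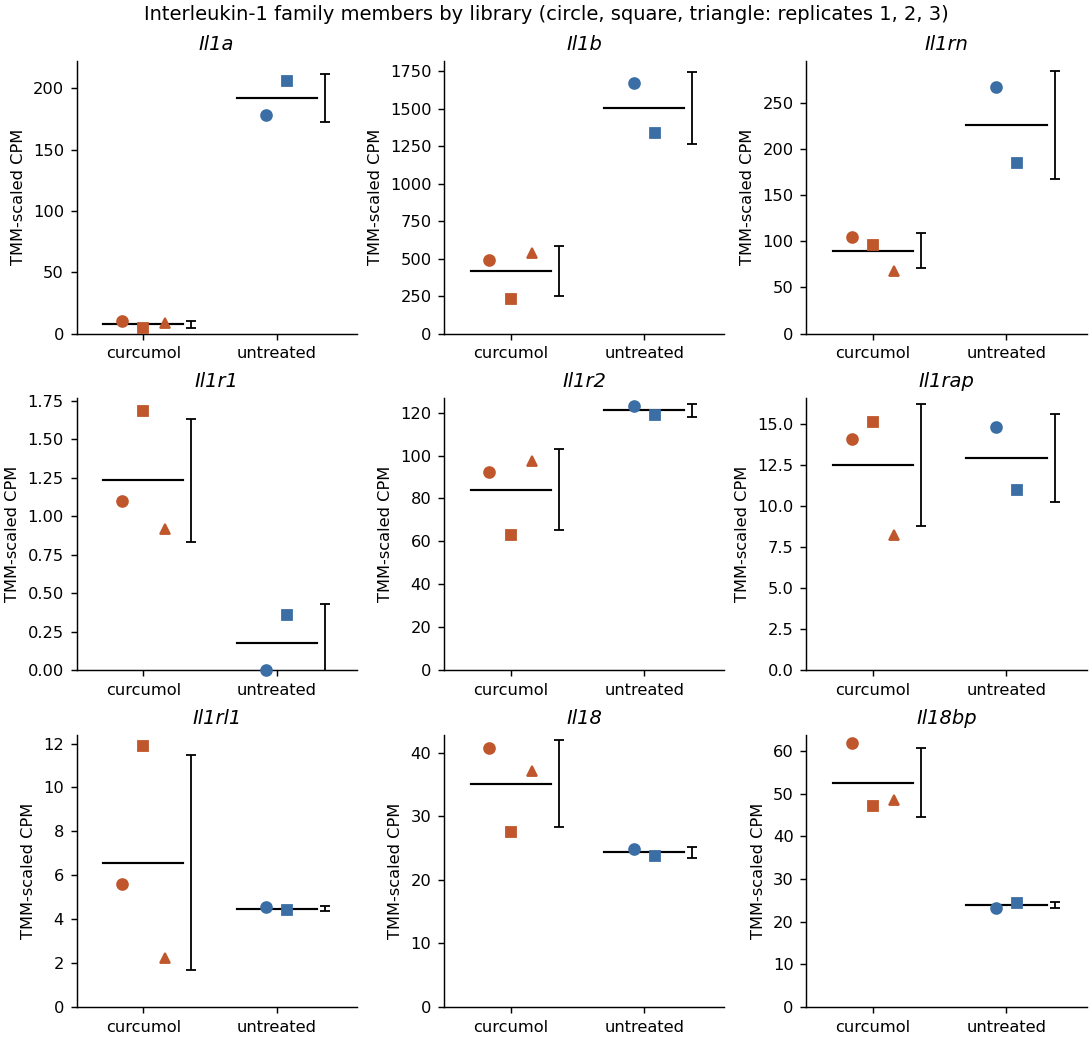
TMM-scaled CPM (y axes, from 0, each panel with its own range) of the 9 IL-1 family members in the 3 curcumol and 2 untreated libraries (x axes). Points are libraries, horizontal lines are means and bars beside them SD; Il1a, Il1b, Il1rn and Il1r2 lay below both untreated libraries in every curcumol library, and Il18, Il18bp and Il1r1 lay above them.

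The receptor antagonist went the same way as the agonists. Il1rn (NCBI gene 16181) stood at 105, 96.6 and 68.4 CPM in the curcumol libraries, against 268 and 185 CPM in the untreated libraries, without overlap. It was 2.51-fold lower with curcumol and did not pass (log2 fold change -1.33 ± 0.25 SE, 95% interval -1.94 to -0.73, adjusted p = 0.0651). DESeq2 gave adjusted p = 6.74e-05 and the fit with a replicate block 0.187, the ends of the span over the alternatives, and edgeR gave 0.0328 without untreated replicate 1 and 0.00331 without untreated replicate 2. Whether antagonist and agonist shifted against each other was not resolved. There were 4.69, 2.37 and 7.80 Il1b counts for each Il1rn count in the curcumol libraries, against 6.24 and 7.24 in the untreated libraries. The curcumol libraries spanned the untreated ones, and the log2 ratio of Il1rn to Il1b differed by 0.60 with an exact permutation p = 0.5 (3 against 2 samples, two-sided). That difference was 0.15 without curcumol replicate 2 and 1.01 without curcumol replicate 3.

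**Figure D3:**
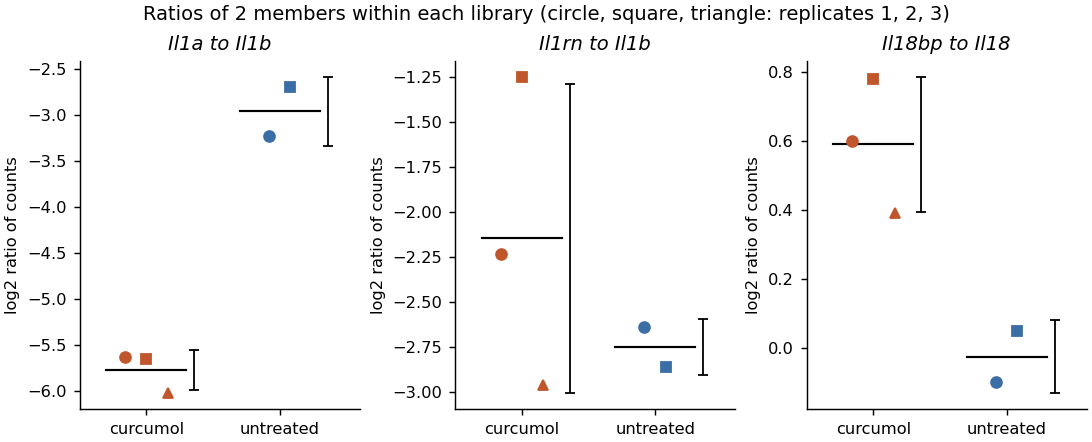
Log2 ratio of the counts of 2 members within a library (y axes, panels Il1a to Il1b, Il1rn to Il1b and Il18bp to Il18) in the curcumol and untreated libraries (x axes). Points are libraries, lines are means and bars beside them SD; the groups lay apart for Il1a to Il1b and for Il18bp to Il18 and overlapped for Il1rn to Il1b.

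IL-18 and its inhibitor stood on the other side. Il18bp (NCBI gene 16068) was at 61.9, 47.2 and 48.6 CPM in the curcumol libraries, against 23.3 and 24.4 CPM in the untreated libraries. All 3 curcumol libraries lay above both untreated ones, at 2.20-fold the level, but the difference missed the threshold (log2 fold change 1.14 ± 0.22 SE, 95% interval 0.61 to 1.67, adjusted p = 0.0651). The alternatives spanned adjusted p = 4.99e-05 with DESeq2 to 0.297 with a replicate block, and edgeR gave 0.0307 without untreated replicate 1 and 0.0192 without untreated replicate 2. Numa1, a protein-coding gene on the opposite strand, overlaps Il18bp. Numa1 stood at 13.4, 43.5 and 28.4 CPM in the curcumol libraries, against 7.09 and 14.2 CPM in the untreated libraries (adjusted p = 0.195 in edgeR), and whether reads of Numa1 were counted to Il18bp was not tested. Curcumol replicate 1 had the highest Il18bp level and the lowest Numa1 level of its group. Between the groups both means were higher with curcumol, at 52.6 against 23.9 CPM for Il18bp and 28.4 against 10.6 CPM for Numa1. Bco2 and Tex12 overlap Il18 on the other strand in the same way, and Gm16894 overlaps Il1r2, each at means of at most 12.2 CPM in either group.

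Il18 (NCBI gene 16173) stood at 40.7, 27.5 and 37.1 CPM in the curcumol libraries, against 24.9 and 23.7 CPM in the untreated libraries. The groups did not overlap, though curcumol replicate 2 came near the untreated level, and the log2 fold change of 0.53 ± 0.26 SE had a 95% interval of -0.09 to 1.15 (edgeR adjusted p = 0.263). Counts of the inhibitor per count of the cytokine were 1.52, 1.72 and 1.31 in the curcumol libraries, against 0.936 and 1.03 in the untreated libraries. The mean log2 ratio was 0.62 higher with curcumol, at the smallest p the exact permutation test can give (p = 0.1, two-sided, adjusted p = 0.133 over the 4 ratios).

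The signalling receptor for IL-1 was close to the detection limit. Il1r1 (NCBI gene 16177) had 46, 74 and 39 counts in the curcumol libraries, against 0 and 14 counts in the untreated libraries, that is 1.10, 1.68 and 0.916 CPM against 0 and 0.358 CPM. Every curcumol library was higher, but the log2 fold change of 2.76 ± 1.66 SE had an interval from -1.25 to 6.78 (edgeR adjusted p = 0.373), and the value rested on which untreated library was kept. Without untreated replicate 2 it was 8.70 and passed (edgeR adjusted p = 0.0107), against a library with no Il1r1 count, and without untreated replicate 1 it was 1.78 and did not pass (0.238). Endothelial cells and fibroblasts also express Il1r1. Endothelial markers summed to 23.8, 39.1 and 28.7 CPM in the curcumol libraries, against 1.37 and 5.09 CPM in the untreated libraries, and fibroblast markers to 132, 161 and 333 CPM, against 37.6 and 28.9 CPM, with 2 of 8, Lum and Dcn, rising (0.0689% of all tested genes rose). Neither passed with total counts as the scaling, with a replicate block or without any 1 of the curcumol libraries, at adjusted p = 0.0560 to 0.196 in edgeR. Curcumol replicate 2 was highest for both Il1r1 and the endothelial sum. The fibroblast sum was highest in curcumol replicate 3, where Il1r1 was lowest of its group. All 6 endothelial markers lay above both untreated libraries, where 29.5% of all tested genes did. Among the markers at 0 in both untreated libraries were Cdh5, the cadherin of endothelial junctions, and the matrix proteoglycan Lum. Their part in the Il1r1 level was not tested.

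The decoy receptor was far more abundant than the signalling receptor. Il1r2 (NCBI gene 16178) stood at 92.2, 62.8 and 97.5 CPM in the curcumol libraries, against 123 and 119 CPM in the untreated libraries. The groups did not overlap, and the difference did not pass (log2 fold change -0.52 ± 0.22 SE, 95% interval -1.06 to 0.02, edgeR adjusted p = 0.217). Neutrophils carry this decoy too, their marker sum was higher with curcumol, and their part in the Il1r2 level was not tested. For each Il1r1 count there were 83.9, 37.4 and 106 Il1r2 counts in the curcumol libraries, against at least 1612 in untreated replicate 1, taken at a floor of 3 counts, and 331 in untreated replicate 2. The ratio was lower in every curcumol library (exact permutation p = 0.1, two-sided, adjusted p = 0.133 over the 4 ratios), and its size rested on the 0 and 14 Il1r1 counts of the untreated libraries.

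The accessory chain and ST2 showed no shift beyond their spread. Il1rap (NCBI gene 16180), the chain that completes the IL-1, IL-33 and IL-36 receptors, stood at 14.1, 15.1 and 8.24 CPM in the curcumol libraries, against 14.8 and 11 CPM in the untreated libraries. Its log2 fold change was -0.05 ± 0.41 SE (95% interval -1.05 to 0.95, edgeR adjusted p = 0.961). Il1rl1 (NCBI gene 17082) stood at 5.59, 11.9 and 2.25 CPM in the curcumol libraries, against 4.56 and 4.40 CPM in the untreated libraries, which the curcumol libraries spanned. The log2 fold change of 0.56 ± 0.79 SE (edgeR adjusted p = 0.742) turned to -0.19 without curcumol replicate 2. Mast cells and group 2 innate lymphoid cells carry ST2. Mast cell and basophil markers summed to 65.4, 42.9 and 37.2 CPM in the curcumol libraries, against 14 and 18.3 CPM in the untreated libraries. Most of each sum was 1 gene, Hdc, at 51.8, 38.3 and 36 CPM in the curcumol libraries, against 13.8 and 18.3 CPM in the untreated libraries. Markers of T, NK and innate lymphoid cells summed to 58.2, 123 and 78.2 CPM in the curcumol libraries, against 71.2 and 79 CPM in the untreated libraries. Of the 7 mast cell and basophil markers in the table, Kit, Tpsb2, Cma1, Mcpt4 and Fcer1a were at 0 in both untreated libraries, where Il1rl1 was measured. Kit, the receptor of stem cell factor, was highest in curcumol replicate 2, as was Il1rl1, whereas the mast cell proteases Tpsb2, Cma1, Cpa3 and Mcpt4 and the histamine-forming enzyme Hdc were highest in curcumol replicate 1. Of the 10 lymphoid markers, Gata3 and Ncr1 were at 0 in both untreated libraries, and Il7r, the highest of the list, stood at 14.5, 40.7 and 28.9 CPM in the curcumol libraries, against 43.4 and 37 CPM in the untreated libraries. The part of these cells in the Il1rl1 level was not tested.

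**Figure D4:**
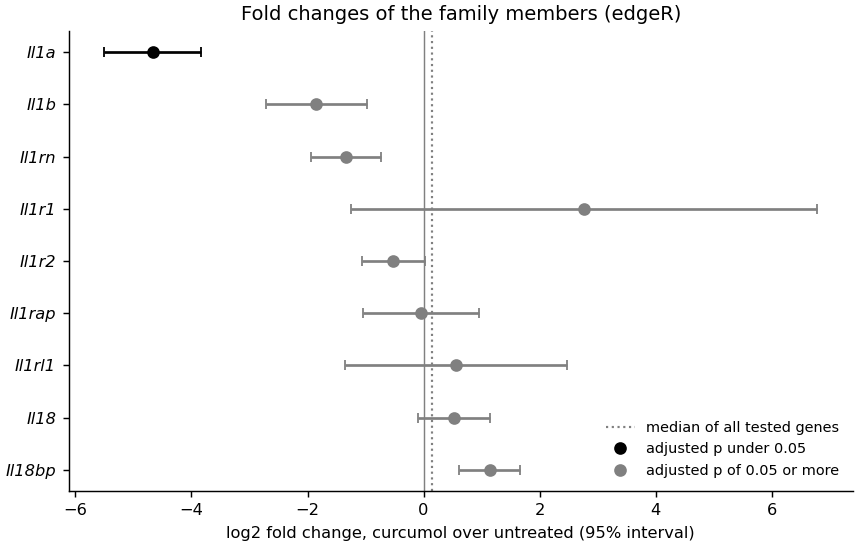
Log2 fold changes (x axis, curcumol over untreated) of the 9 members (y axis) with 95% intervals from edgeR; the black point passed the threshold of adjusted p under 0.05 and grey points did not. Il1a lay at -4.66, the intervals of Il1b and Il1rn lay below 0 and that of Il18bp above 0, and the dotted line marks the median of all tested genes at 0.15.

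Over the 9 members, 1 fell and none rose in edgeR, while the log2 fold change was above 0 for 4 of them and below 0 for 5. At an unadjusted p under 0.05 there were 3 lower and 1 higher members, against 6.51% lower and 18.1% higher among all tested genes. All libraries of 1 group lay on 1 side of the other for 4 lower members, where 14.9% of all tested genes lay lower without overlap, and for 3 higher members, where 29.5% did. The members' median log2 fold change was -0.05, against 0.15 for all tested genes. DESeq2 called 4 members, Il1a, Il1b and Il1rn lower and Il18bp higher. With total counts as the scaling the median of all genes was 0.34, and of the 9 signs only that of Il1rap turned. Without untreated replicate 1 there were 4 members past the threshold, where 18.7% of all genes tested in that fit passed, and without untreated replicate 2 there were 5, where 22.5% passed, while leaving out any 1 curcumol library left none. Where 1 untreated library was left alone, it is assumed to vary like the curcumol libraries.

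Per transcript length the order of the members differed between the groups (TPM, counts per transcript length as a share of the library, with lengths from GENCODE M21). In the curcumol group Il1b led at 600 ± 221 TPM, before Il1r2 at 116 ± 21.8, Il18 at 77.5 ± 11.9, Il1rn at 71.5 ± 15.4 and Il18bp at 39.7 ± 4.70 TPM (SD, n = 3). Il1a at 7.47 ± 2.44 TPM came after them, and it overlapped Il1rap at 5.46 ± 1.73 TPM, just as Il18 overlapped Il1rn. Il1rl1 at 2.49 ± 1.96 TPM and Il1r1 at 0.42 ± 0.155 TPM were lowest. In the untreated group Il1b stood at 1864 ± 260 TPM, and Il1a at 164 ± 19.8, Il1rn at 154 ± 37.2 and Il1r2 at 143 ± 0.758 TPM followed (SD, n = 2). Both Il1a values, 150 and 178 TPM, lay above both Il1r2 values, 144 and 142 TPM, while Il1rn at 180 and 127 TPM overlapped both genes. Il18 at 46.2 ± 0.769 TPM and Il18bp at 15.5 ± 0.817 TPM came next, then Il1rap at 4.81 ± 0.912, Il1rl1 at 1.42 ± 0.0104 and Il1r1 at 0.0525 ± 0.0742 TPM. Il1b made up 66, 54.6 and 70.6% of the summed TPM of the 9 members in the curcumol libraries, against 79.1 and 76.5% in the untreated libraries. The share of Il1a was 0.917, 0.747 and 0.749% in the curcumol libraries, against 5.80 and 8.11% in the untreated libraries, and that of Il18 was 8.37, 10 and 7.53%, against 1.80 and 2.08%. Each of these 3 shares lay apart between the groups. As Il1b was most of each sum, its lower level raises the shares of members that did not fall. Il1rap, with a log2 fold change of -0.05, had shares of 0.57, 1.08 and 0.327% in the curcumol libraries, against 0.211 and 0.19% in the untreated libraries.

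The genes whose pattern over the 5 libraries was most like those of Il1a and Il1b were found among 10273 genes as the smallest root mean square difference in log2 CPM, each gene centred on its mean. For Il1a they were F3, which encodes tissue factor (0.303 log2 units), Tnfsf9, the ligand of 4-1BB (0.572), the cytokines Il6 (0.666) and Tnf (0.715), and Plau, the urokinase (0.724). The group difference is part of these patterns, so lower levels with curcumol follow from the choice of the genes. Among the 5 genes like Il1a, F3 and Tnfsf9 fell (edgeR adjusted p = 0.0464 and 0.0417), as did 0.138% of all tested genes. F3 averaged 1.38 ± 0.495 CPM in the curcumol group, against 35.9 ± 16.9 CPM in the untreated group. Neither passed without curcumol replicate 1 or 2 or with total counts as the scaling, nor F3 without curcumol replicate 3 or with a replicate block. Tnf, a cytokine of the same early inflammatory phase, averaged 33.5 ± 19.9 CPM in the curcumol group and 374 ± 32.1 CPM in the untreated group (SD, n = 3 and n = 2). Plau, which activates plasminogen, averaged 2.54 ± 1.30 CPM in the curcumol group and 23.1 ± 2.12 CPM in the untreated group. For Il1b they were Osm, which encodes oncostatin M (0.198), the inflammasome sensor Nlrp3 (0.228), Cdin1 (0.228), Exoc3l4 (0.232) and Tmem116 (0.233). Osm averaged 125 ± 53.5 CPM in the curcumol group and 519 ± 28.0 CPM in the untreated group (edgeR adjusted p = 0.0651). Exoc3l4 and Tmem116 were scarce, at 1.53 ± 0.717 and 1.23 ± 0.477 CPM in the curcumol group and 4.14 ± 0.0989 and 3.36 ± 0.842 CPM in the untreated group.

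Further ligands of the family were present at low levels and were higher with curcumol without passing. Il33, the ligand of ST2 that is released by damaged stromal cells, stood at 1.91, 1.95 and 1.81 CPM in the curcumol libraries, against 0 CPM in both untreated libraries. With 3 counts per library as the floor, this was 24.8-fold higher (edgeR adjusted p = 0.0651). That floor covers counting error only, so the value is no lower bound. Of genes at 1 to 3 CPM in the curcumol group, 44% had no count in untreated replicate 1 and 36.5% in untreated replicate 2. Il1f9, which encodes IL-36 gamma, stood at 19.2, 8.15 and 14.5 CPM in the curcumol libraries, against 1.47 and 3.84 CPM in the untreated libraries (edgeR adjusted p = 0.0846). The fibroblast and endothelial sums given above were higher in the same libraries, and their part in the Il33 level was not tested. Of 10 ligand symbols listed, these 2 were in the table, and the others were not analysed here.

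Of 6 further receptor chains listed 4 were tested, none passed, and their median log2 fold change was 1.59 on few counts. Without untreated replicate 1 that median was 9.94, against 0.29 for all genes tested in that fit. Without untreated replicate 2 it was 1.08, against 0.38. Sigirr, an inhibitory receptor of the family, stood at 7.26, 9.78 and 8.92 CPM in the curcumol libraries, against 4.81 and 4.40 CPM in the untreated libraries (edgeR adjusted p = 0.317). Il1rl2, the IL-36 receptor, averaged 6.77 ± 0.711 CPM in the curcumol group, against 1.65 and 0 CPM in the untreated libraries. Il18rap, the accessory chain of the IL-18 receptor, averaged 12.7 ± 2.55 CPM in the curcumol group, against 5.24 and 0 CPM in the untreated libraries. Il18r1, the other chain of that receptor, named because it alone of the 4 was below 0, had a log2 fold change of -1.23 ± 1.97 SE, at 0.454, 2.86 and 0.47 CPM in the curcumol libraries, against 5.93 and 0 CPM in the untreated libraries. Untreated replicate 2 had no count for Il1rl2, Il18rap or Il18r1, and the SEs of their log2 fold changes were 1.70, 1.67 and 1.97.

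The relay behind the receptor had a median fold change near that of all tested genes. Of 19 signalling genes none passed, 13 lay above 0 and 6 below on the log2 scale, and the median was 0.23. Tab3, an adaptor of the kinase TAK1, stood at 2.32, 2.13 and 2.93 CPM in the curcumol libraries, against 0 CPM in both untreated libraries (edgeR adjusted p = 0.0644). With the same floor Tab3 was 32.2-fold higher, which is no lower bound either. In its range of 1 to 3 CPM, 44% and 36.5% of genes had no count in untreated replicates 1 and 2. Irak4, the first kinase of the relay, averaged 62.7 ± 14.1 CPM in the curcumol group and 37.0 ± 5.97 CPM in the untreated group (edgeR adjusted p = 0.126). A further adaptor of TAK1, Tab2, averaged 38.8 ± 11.6 CPM in the curcumol group and 20.7 ± 5.03 CPM in the untreated group, and the ubiquitin-conjugating cofactor Ube2v1 averaged 82.7 ± 12.7 CPM in the curcumol group and 122 ± 21.6 CPM in the untreated group (edgeR adjusted p = 0.149 for both). Myd88, the adaptor of the receptor and named for that role, averaged 188 ± 27.7 CPM in the curcumol group and 238 ± 35.0 CPM in the untreated group (edgeR adjusted p = 0.332).

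Genes for cleavage and release of IL-1 had a median close to 0. Of 13 such genes none passed, 6 were positive and 7 negative, and the median log2 fold change was -0.00108. Nlrp3, which senses damage and assembles the caspase-1 platform, stood at 9.72, 5.79 and 17.3 CPM in the curcumol libraries, against 39.3 and 33.7 CPM in the untreated libraries (log2 fold change -1.74 ± 0.46 SE, edgeR adjusted p = 0.0802). It was the 1 gene of the 13 that lay lower in every curcumol library than in both untreated libraries, as did 14.9% of all tested genes. Nek7, its partner kinase, was the 1 gene that lay higher, as did 29.5% of all tested genes. Nek7 averaged 77.0 ± 17.5 CPM in the curcumol group and 49.9 ± 4.30 CPM in the untreated group (edgeR adjusted p = 0.161). Casp4, the caspase of the non-canonical pathway, averaged 30.1 ± 3.36 CPM in the curcumol group and 38.0 ± 8.94 CPM in the untreated group (edgeR adjusted p = 0.464). Casp1, named as the enzyme that cleaves the IL-1 beta precursor, averaged 111 ± 16.5 CPM in the curcumol group and 102 ± 33.6 CPM in the untreated group (edgeR adjusted p = 0.823).

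Genes that IL-1 is known to induce, which other inflammatory stimuli induce too, were mostly lower with curcumol. Of 19 listed 17 were tested, 12 lay below 0 and 5 above on the log2 scale, and the median was -1.44, against 0.15 for all tested genes. In edgeR 1 fell and none rose, against 0.138% and 0.0689% of all tested genes. In every curcumol library 12 genes lay lower than in both untreated ones, as did 14.9% of all tested genes, and 3 lay higher, as did 29.5%. The dissociation response genes, all 15 of which had a negative log2 fold change, include stimulus-induced genes of the same kind, and their part was not tested. Cxcl1, a neutrophil attractant, fell to 26.7, 25.4 and 45.0 CPM in the curcumol libraries, against 267 and 469 CPM in the untreated libraries (log2 fold change -3.51 ± 0.35 SE, edgeR adjusted p = 0.0431). It did not pass with total counts as the scaling, at 0.0560, or without curcumol replicate 1, 2 or 3, at 0.0954, 0.104 and 0.0669 (adjusted p, edgeR). Il6 stood at 2.99, 1.27 and 4.41 CPM in the curcumol libraries, against 29.8 and 30.7 CPM in the untreated libraries (edgeR adjusted p = 0.0637). The 3 genes that lay higher, named after their values were seen, were Lcn2, a siderophore-binding protein of neutrophil granules, the adhesion molecule Vcam1 and the metalloproteinase Mmp3. Lcn2 averaged 75.7 ± 32.1 CPM in the curcumol group and 4.09 ± 2.24 CPM in the untreated group (edgeR adjusted p = 0.0555), beside the higher neutrophil sum, whose part in it was not tested. Mmp3, which fibroblasts make, averaged 2.49 ± 0.649 CPM in the curcumol group, against 0 CPM in both untreated libraries. With the same floor Mmp3 was 32.6-fold higher, again no lower bound. In its range of 1 to 3 CPM, 44% and 36.5% of genes had no count in untreated replicates 1 and 2. Vcam1, which activated endothelium makes, stood at 54.7, 124 and 43.3 CPM in the curcumol libraries, against 0.735 and 11.7 CPM in the untreated libraries (edgeR adjusted p = 0.112). The cells that gave the Mmp3 and Vcam1 counts are not known, and the part of fibroblasts and endothelium was not tested.

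**Figure D5:**
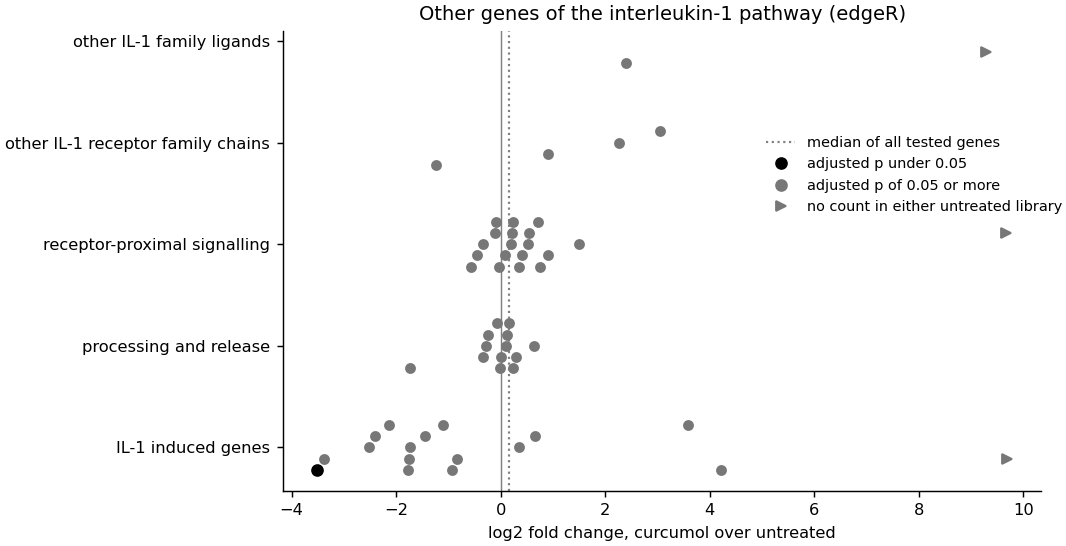
Log2 fold changes (x axis, curcumol over untreated, edgeR) of the tested genes of 5 further pathway lists (y axis, spread vertically within a list for legibility). The IL-1 induced genes lay mostly below 0, with Cxcl1, in black, past the threshold; triangles are genes with no count in either untreated library, whose fitted position depends on the prior count and is no measured fold.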

How the data were processed

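The authors deposited 1 table of counts per gene, whole numbers without normalization, for the 3 curcumol and 2 untreated samples, and columns were tied to samples by title. Bowtie2, HISAT2, HTSeq and fastp are listed as tools, per the submitters' processing notes. No version is named, and the build of the genome was not given in the sources used here. Per the labels' protocols the library kit was VAHTS Universal V6, while the design text of the series names TruSeq with strand marking, so the use of strand in counting could not be established. The labels do not say that samples of a group were separate animals, so p-values measure the spread between these samples, which may be technical. No 2 libraries agreed within sampling noise.

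Curcumol was compared with untreated in edgeR 4.0.16 (R 4.3.3): filterByExpr with a minimum count of 10 left 14508 genes, which were scaled by TMM factors and fitted by quasi-likelihood with group as the only term, 3 residual degrees of freedom, two-sided tests, Benjamini-Hochberg adjustment and a threshold of 0.05. CPM were scaled by TMM factors, and SEs came from the fold change and its F statistic. The fit was also run on simulated data of smaller dispersion than these, which cannot show how it performs here. TPM used the longest coding transcript (GENCODE M21, by name) for 17506 genes. Ratios of 2 genes used counts plus 0.5. Profiles were compared in log2 CPM with a prior count of 2. Floors of 3 counts cover counting error only. Alternatives were DESeq2 1.42.0, limma-voom (limma 3.58.1), other scalings and filters, a replicate block and leaving out each library.

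Members and lists were chosen with earlier results of these data known. Named were all members, list members past the threshold or else the 3 with the smallest p, and the 5 genes most like Il1a and Il1b in pattern.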

Additional observations from a re-analysis of the deposited data

How the results depend on the processing

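Signs of Il1a, Il1b, Il1rn, Il1r1, Il1r2, Il18 and Il18bp were the same in all 12 alternatives run; since these groups do not overlap, that is no sign of stability. The number of genes past the threshold was 30, and 10 with total counts, 2397 with DESeq2, 1661 with limma-voom, 416 without a filter on low counts, 98 with a CPM of at least 1 in 2 libraries, and 0 to 3531 when a library was left out. DESeq2 called 4 members, limma-voom 4 and edgeR without a filter 3, against 1 in edgeR as reported, with 0 to 5 when a library was left out. The added calls were Il1b (-1.86 with DESeq2, -1.93 with limma-voom, -1.84 without a filter), Il1rn (-1.34, -1.33 and -1.33) and, with DESeq2 and limma-voom, Il18bp (1.13 and 1.13). The cause was not tested.

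When 1 library was left out, log2 fold changes ranged from -4.90 to -4.40 for Il1a, -2.06 to -1.55 for Il1b, -1.55 to -1.03 for Il1rn, 1.01 to 1.21 for Il18bp, 1.78 to 8.70 for Il1r1, -0.23 to 0.18 for Il1rap and -0.19 to 0.97 for Il1rl1. Il1rap also turned to 0.14 with total counts and 0.19 with a replicate block. The median of the processing and release list, near 0 throughout, was 0.19 with total counts, 0.00108 without a filter, 0.08 with a replicate block and -0.17 to 0.11 without 1 library. That of the further receptor chains was 3.59 with limma-voom and 1.08 to 9.94 without 1 library, and the Il1r2 to Il1r1 log2 ratio, -4.68 with 0.5 counts added, ranged from -7.14 to -2.22.

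Replicate numbers are shared by the groups only as numbers. Deviations from the group means correlated at 0.0257 for replicate 1 and -0.0267 for replicate 2 across genes. With the replicate block, in which curcumol replicate 3 has no partner, 45 genes and 1 member, Il1a (-4.82, adjusted p = 0.0240), passed. Few counts limit Il1r1, Il33 and the further receptor chains. The untreated libraries were not the shallower ones, at 43315822 and 41663017 counts, against 39768705 to 41117439 in the curcumol libraries. Fewer genes had a count in them, 12243 and 12915, against 17078 to 18501.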
